A study of Homo sapiens with 4 samples.

Results

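The genes of glycolysis, glucose uptake and lactate handling were followed from human embryonic stem cells to early blood cells in culture. They were 32 genes chosen by symbol: glucose transporters, the enzymes of each step from hexokinase to pyruvate kinase with their isozymes, the PFKFB regulators, lactate dehydrogenases, lactate transporters, and PDK1 and PDHA1 at the entry to mitochondrial oxidation. All 32 were found, among 17630 genes analysed. The libraries came from the H1 line, an established human embryonic stem cell line: the starting cells, undifferentiated (hESC); on day 2 a sort for APLNR+ cells, labelled MES; on day 4 one for CD31+CD34+, labelled HEP; and on day 7 one for CD31+CD43+, labelled HPC. Cells were given activin A (40 ng/ml) and BMP4 (50 ng/ml) for 2 days, then VEGF (40 ng/ml) and bFGF (50 ng/ml) for 2 days, and finally VEGF, bFGF and the activin receptor inhibitor SB-431542 for 3 days, all in a mTeSR1-based medium. No sort is stated for the hESC library, so in comparisons with it the effect of the sort cannot be told apart from that of differentiation. MES, HEP and HPC were sorted for different antigens, on different days and after different factors. Between these libraries the effects of sort, day and factors cannot be told apart either. With 1 library behind each group, the values carry no replicate error, and the differences have neither a replicate check nor a test.

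Glycolysis splits glucose into pyruvate in the cytosol and yields ATP without oxygen. Glucose enters through SLC2A (GLUT) transporters and is trapped by hexokinase. Phosphofructokinase-1 makes the committed step and is driven by fructose 2,6-bisphosphate, whose level the PFKFB enzymes set, and pyruvate kinase closes the pathway. Lactate dehydrogenase interconverts pyruvate and lactate, and monocarboxylate transporters carry lactate across the membrane. Pyruvate dehydrogenase instead feeds pyruvate to the mitochondria, and its kinases, such as PDK1, switch it off. Many of these proteins exist as isozymes encoded by separate genes, and pluripotent stem cells and endothelial cells are both known for a high glycolytic flux.

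The values are the authors' normalised expression signal per gene, taken to be per transcript length because RSEM reports such values. Differences are log2 differences of (value + 1), which understate the change of low genes. A gene was counted as higher or lower when this difference was at least 1 in size (2-fold) and the higher library stood at 5 or more. The depth behind the values is unknown. In sums over sorted populations, more cells of a type and more RNA per cell cannot be told apart. The antigens used for the sorts were present in the libraries sorted for them: APLNR at 344 in MES, CD34 at 43.6 in HEP and SPN (CD43) at 24.4 in HPC, while PECAM1 (CD31) was low at 1.83 in HEP and 7.49 in HPC. The differences between libraries followed transcript GC content, most of all from MES to HEP, where the Spearman rho across 6366 genes was 0.71 (a description over genes, which are not independent replicates). For the 32 genes a second value is therefore given, with this trend removed from each library, where it changes a call. For the lists around the pathway, counts or calls with the trend removed are given for some only. List values without such a statement are as deposited.

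As a share of the summed signal the pathway was alike in the 4 libraries, while single steps differed. The 32 genes together made up 1.81% of the summed signal in hESC, 1.77% in MES, and 1.86% and 1.78% in HEP and HPC. This share sets each library against its own total, which the calls do not. The total was 426980 in hESC and 306724 in HEP. Unscaled, the 32 genes summed to 7736 in hESC, 6425 in MES, and 5702 and 6283 in HEP and HPC. The highest of these sums was 1.36-fold the lowest. GAPDH alone was 22.8% of the sum in MES and 35.3% in HPC, so the share says little about the less abundant genes. In hESC 23 of the 32 genes stood at 5 or more, in MES 26, in HEP 24 and in HPC 24. Of the 32, 12 passed the size rule in at least 1 of the 4 comparisons and 20 in none, where 28.6% of all genes passed in at least 1. Of the 25 with a mean of 5 or more 11 passed, where 56.7% of genes at that level did. Glucose uptake, the last step to pyruvate and the lactate branch held most of the differences: PKM was highest in MES, LDHB was lowest in HEP, and the leading lactate transporter changed from SLC16A1 to SLC16A3.

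**Figure D1:**
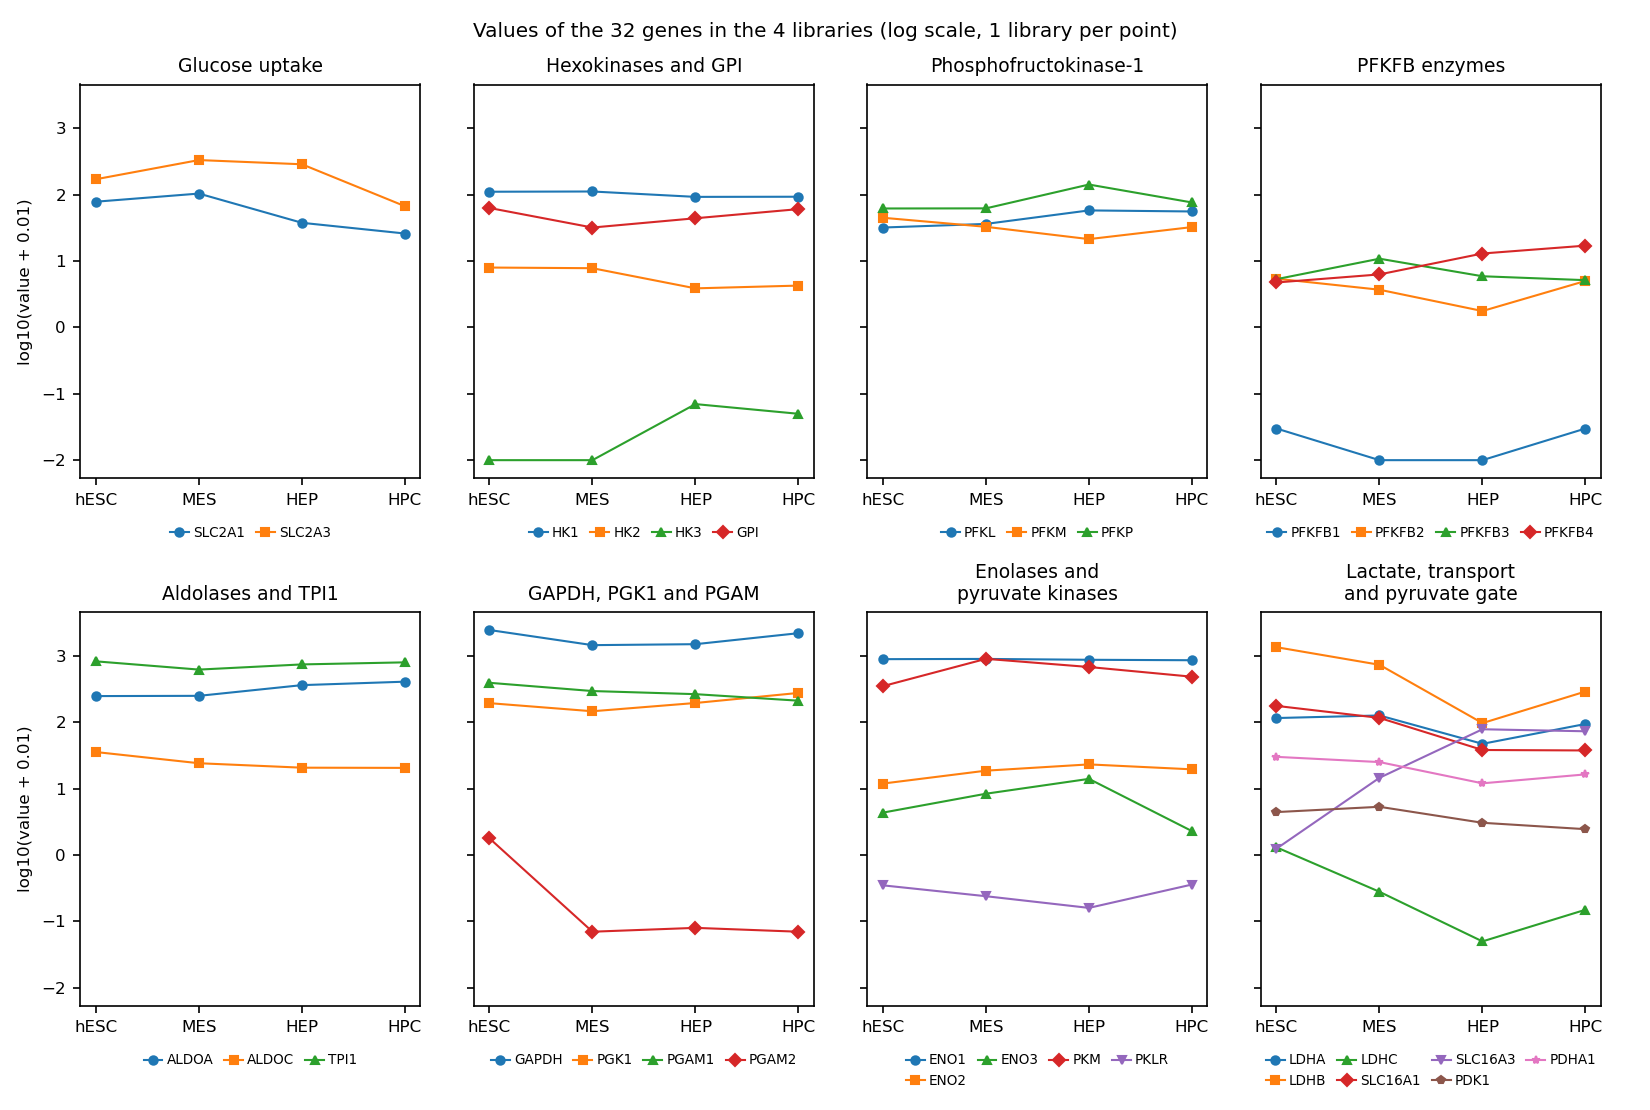
Values of all 32 genes in the 4 libraries, 1 point per library, as log10(value + 0.01), grouped by step. GAPDH, TPI1 and ENO1 form nearly level lines near the top, SLC16A3 goes from 1.24 in hESC to 78.9 in HEP, and LDHB goes from 1362 in hESC to 97.7 in HEP.

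Of the glucose transporters, SLC2A1 (GLUT1), the widespread basal transporter, stood at 78.7 in hESC, 104 in MES, and 37.8 and 26.1 in HEP and HPC. It was highest in MES and lowest in HPC, with HEP 2.76-fold below MES (log2 difference -1.44) and HPC 3.02-fold below hESC (-1.56). SLC2A3 (GLUT3), a high-affinity transporter, stood at 172 in hESC, 334 in MES, and 289 and 67.4 in HEP and HPC. Its high values were thus in MES and HEP, and HPC stood 4.29-fold below HEP (-2.08) and 2.55-fold below hESC (-1.34; -0.59, short of the rule, with the GC trend removed). The difference of SLC2A3 from hESC to MES was 0.96, just short of the rule, and 1.18 with the GC trend removed. SLC2A3 was the more abundant of the pair in every library, at 68.6% of their sum in hESC, 76.2% in MES, and 88.4% and 72.1% in HEP and HPC. The sum of the pair was 439 in MES and 93.5 in HPC. SLC2A14, a near-identical copy of SLC2A3 with which reads can be shared, stood between 0.06 and 0.55.

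Hexokinase, which phosphorylates glucose on entry, was almost wholly HK1, the housekeeping isozyme, at 111 in hESC, 112 in MES, and 93.1 and 93.5 in HEP and HPC. The highest and lowest of these differed 1.21-fold, and 111 of 6371 genes averaging 5 or more had a smaller ratio. HK2, the isozyme often induced in proliferating and hypoxic cells, was at 8.0, 7.82, 3.88 and 4.27 in the same order and passed the rule nowhere. HK1 took 93.3% to 95.9% of the family. HK3, the isozyme of myeloid cells, was listed at 0 in hESC and MES and at 0.06 and 0.04 in HEP and HPC. GPI, the isomerase of the next step, stood at 63.3, 32.1, 44.3 and 60.9, lowest in MES, 0.96 below hESC on the log2 scale.

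Phosphofructokinase-1, a tetramer of platelet-type (PFKP), liver-type (PFKL) and muscle-type (PFKM) subunits, differed in its make-up. PFKP stood at 62.2 in hESC, 62.5 in MES, and 143 and 76.7 in HEP and HPC, and was 2.29-fold higher in HEP than in MES (1.18; 0.86, short of the rule, with the GC trend removed). PFKM went the other way, with 45.1, 32.9, 21.5 and 32.6. PFKL stood at 32.1, 36.4, 58.2 and 56.1. The muscle-type share was 32.3% of the family in hESC, 24.98% in MES, and 9.65% and 19.7% in HEP and HPC, while the platelet-type share was 64.2% in HEP and between 44.6% and 47.4% elsewhere. Neither PFKL nor PFKM passed the rule in any comparison of the values as deposited. The PFKL difference from hESC to HPC was 0.79 as deposited and lay between 0.62 and 1.39 over the scalings tried. From MES to HEP it was 0.66 and lay between 0.13 and 1.22. With the GC trend removed the largest shift in a share was 18.2 points, under the 20 points that counted as a shift.

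The PFKFB enzymes make and break fructose 2,6-bisphosphate, the activator of phosphofructokinase-1, and their leading member differed between libraries. PFKFB4 stood at 4.76 in hESC, 6.30 in MES, and 13.0 and 17.1 in HEP and HPC, and was 3.60-fold higher in HPC than in hESC (1.65). PFKFB3, the isozyme with the strongest kinase activity, was highest in MES: 5.34, 10.9, 5.91 and 5.16. Its difference from MES to HEP was -0.78, and -1.07, past the rule, with the GC trend removed. PFKFB2 stood at 5.43, 3.70, 1.76 and 5.02, lowest in HEP, and was 1.13 higher in HPC than in HEP on the log2 scale (0.96 with the GC trend removed). PFKFB1, the liver and muscle isozyme, did not exceed 0.02. PFKFB2 and PFKFB3 were level in hESC (34.9% and 34.3% of the family), PFKFB3 led in MES (52.1%), and PFKFB4 led in HEP (62.9%) and HPC (62.7%). Once the GC trend was removed, PFKFB3 led in hESC (40.2%) and MES (55.3%), and PFKFB4 in HEP (60.0%) and HPC (59.7%). These are low values, so the order within hESC is the least certain.

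Of the enzymes that split and oxidise the sugar, none passed the rule in the values as deposited. ALDOA, the main aldolase, stood at 250 in hESC, 252 in MES, and 365 and 411 in HEP and HPC, 0.72 above hESC in HPC on the log2 scale. Over the scalings tried this ALDOA difference lay between 0.60 and 1.33, and that from MES to HEP between 0.19 and 1.10. ALDOC, the brain-type aldolase, stood at 35.8, 24.2, 20.8 and 20.6, so that the ALDOA share of the pair was 87.5% in hESC and 95.2% in HPC. TPI1, which interconverts the triose phosphates, stood at 833, 626, 749 and 805. GAPDH, which makes the first NADH and is often taken as a reference gene, stood at 2474, 1463, 1512 and 2215. It was the highest of the 32 genes in every library, ranking 11th of all genes in hESC and 35th in MES. Its highest value was 1.69-fold its lowest, and between 1.56-fold and 2.21-fold over the other scalings tried. Processed pseudogenes of GAPDH and TPI1 can share their reads.

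PGK1, the first ATP-forming enzyme, stood at 195 in hESC, 147 in MES, and 196 and 278 in HEP and HPC, and passed no rule in the values as deposited. Its transcripts are poor in G and C (43.3%). From MES to HEP its difference was 0.41, while the median of 522 genes within 1 point of its GC content was -1.39. With the GC trend removed PGK1 was 1.78 higher in HEP than in MES and 1.80 higher in HPC than in hESC. PGAM1, the main phosphoglycerate mutase, stood at 396, 297, 267 and 213, and was 0.89 below hESC in HPC on the log2 scale. PGAM2, the muscle isozyme, stood at 1.78 in hESC and at 0.06 or 0.07 in the other libraries, all under the minimum of the rule.

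ENO1, the widespread enolase, was the most even of the 25 genes averaging 5 or more in the values as deposited, at 899 in hESC, 907 in MES, and 880 and 866 in HEP and HPC. The ratio of its highest to its lowest value was 1.05 as deposited, smaller than in all but 6 of 6371 genes, and between 1.24 and 1.53 with the 6 other scalings, under each of which HK1 was more even (1.14 to 1.31). ENO2, the neuron-type enolase, stood at 11.97, 18.7, 23.3 and 19.6. The 5 neural markers, mostly TUBB3, summed to 162, 66.0, 93.3 and 14.1, and their part in the ENO2 values was not tested. ENO3, the muscle-type enolase, stood at 4.36, 8.41, 14.1 and 2.29, and HPC was 6.15-fold below HEP (-2.20). The 7 muscle and heart markers summed to 8.21 in hESC, 122 in MES, and 71.9 and 4.31 in HEP and HPC. This sum was mostly ACTC1 and MYL7, with MYH7 and TNNT2 at 0.03 and 0 in HEP, and its part in the ENO3 values was not tested. ENO1 still held between 95.9% and 98.2% of the family.

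PKM, the pyruvate kinase of most tissues, stood at 352 in hESC, 909 in MES, and 685 and 489 in HEP and HPC. MES was 2.58-fold above hESC (1.36), and the values then went down towards HPC without passing the rule. Within a library, which no scaling affects, PKM was 14.2% of GAPDH in hESC, 62.2% in MES, and 45.3% and 22.1% in HEP and HPC, and it equalled ENO1 in MES (ratio 1.003). The M1 and M2 splice forms of PKM share this one row and were not separated. PKLR, the liver and red cell gene, stood at 0.34, 0.23, 0.15 and 0.35. It was thus under 1 in HPC also, where the 9 erythroid markers summed to 2724 (23.5 or less in the other libraries) and the fetal globin gene HBG2 stood at 1509.

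**Figure D2:**
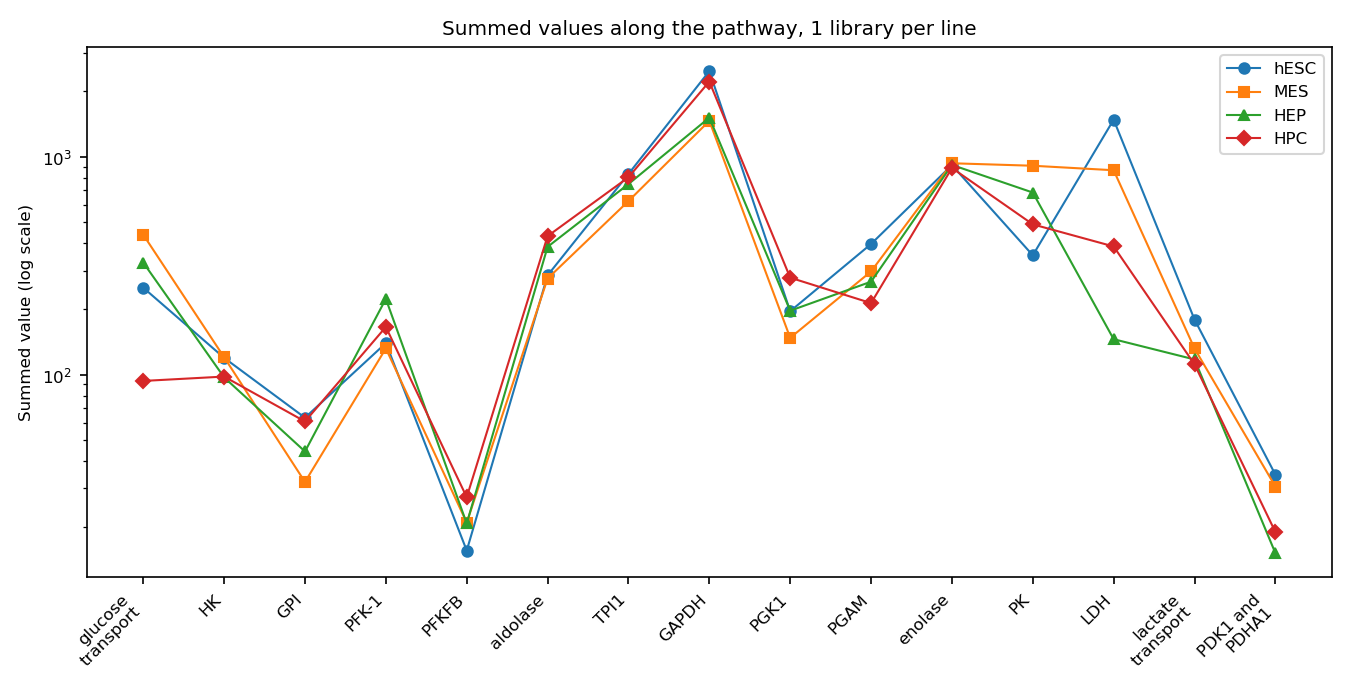
Summed value of the genes of each step (log axis) along the pathway, 1 line per library. In these values as deposited the 4 lines meet at enolase, between 888 and 934, and lie farthest apart at lactate dehydrogenase, between 145 in HEP and 1480 in hESC.

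In the values as deposited lactate dehydrogenase showed the widest gap between libraries of any step, 10.2-fold between the highest and lowest sums. The gap was 3.74-fold once the GC trend was removed, below those of the glucose transporters (4.00-fold) and PGK1 (3.81-fold). LDHB, the heart-type subunit, associated with use of lactate, stood at 1362 in hESC, 740 in MES, and 97.7 and 292 in HEP and HPC. It was the second highest of the 32 genes in hESC and the 57th of all genes there, against 448th in HEP. HEP stood 7.57-fold below MES (-2.91) and HPC 2.99-fold above HEP (1.57). HPC stood 4.66-fold below hESC (-2.22). LDHA, the muscle-type subunit, associated with lactate production and a classical target of hypoxia-inducible factors, stood at 116, 127, 47.6 and 94.8. HEP was 2.68-fold below MES (-1.40), and HPC was 0.98 above HEP on the log2 scale, just short of the rule. LDHC, the testis form, did not exceed 1.30.

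LDHA and LDHB have nearly the same GC content (45.04% and 44.4%), low enough for the trend to matter, and they were therefore also compared with each other. The median difference from MES to HEP was -1.18 over 549 genes within 1 point of the GC content of LDHB and -1.10 over 517 such genes for LDHA. With the trend removed LDHB was still lower in HEP than in MES (-1.71), higher in HPC than in HEP (1.22) and lower in HPC than in hESC (-1.10), whereas LDHA was at -0.35 from MES to HEP, short of the rule. The ratio of LDHB to LDHA was 11.7 in hESC, 5.81 in MES, and 2.05 and 3.09 in HEP and HPC, and 11.3, 5.55, 2.15 and 3.20 with the trend removed. LDHB led in all 4 libraries, and the LDHA share was 7.87% in hESC and 32.7% in HEP. Processed pseudogenes of LDHA and LDHB can share their reads.

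The 2 lactate transporters changed places. SLC16A1 (MCT1), a high-affinity transporter that can import or export lactate, stood at 178 in hESC, 117 in MES, and 38.4 and 37.8 in HEP and HPC. HEP was 3.05-fold below MES (-1.58) and HPC 4.70-fold below hESC (-2.20). With the GC trend removed the first difference was -0.41, short of the rule, and the second -1.11. SLC16A3 (MCT4), an exporter typical of strongly glycolytic cells, stood at 1.24 in hESC, 14.6 in MES, and 78.9 and 73.6 in HEP and HPC. MES was 11.8-fold above hESC (2.80), HEP 5.40-fold above MES (2.35) and HPC 59.3-fold above hESC (5.06), the largest difference among the 32 genes in each of these 3 comparisons for genes counted as higher. It was higher in these 3 comparisons with the GC trend removed as well (2.88, 1.85 and 4.94).

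SLC16A3 held 0.69% of the pair in hESC, 11.1% in MES, and 67.3% and 66.1% in HEP and HPC. Its share after GC trend removal was 1.27%, 16.2%, 49.1% and 59.4%, so that the lead in HEP then stayed narrowly with SLC16A1 and passed to SLC16A3 in HPC. The sum of the pair was far more even, at 179, 132, 117 and 111. BSG (basigin), the chaperone that brings both transporters to the cell surface, stood at 182, 143, 257 and 187. SLC16A3 transcripts are rich in G and C (64.7%) and those of SLC16A1 poor (44.4%). The 6 endothelial markers summed to 32.6 in hESC, 65.8 in MES, and 554 and 266 in HEP and HPC, highest in the same libraries as SLC16A3. In hESC and MES this sum was mostly KDR (24.5 and 62.4), with CDH5 at 0.33 and 0.14 and PLVAP at 0.35 and 0.36. SLC16A3 was already higher in MES than in hESC. The part of these markers in the SLC16A3 values was not tested.

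**Figure D3:**
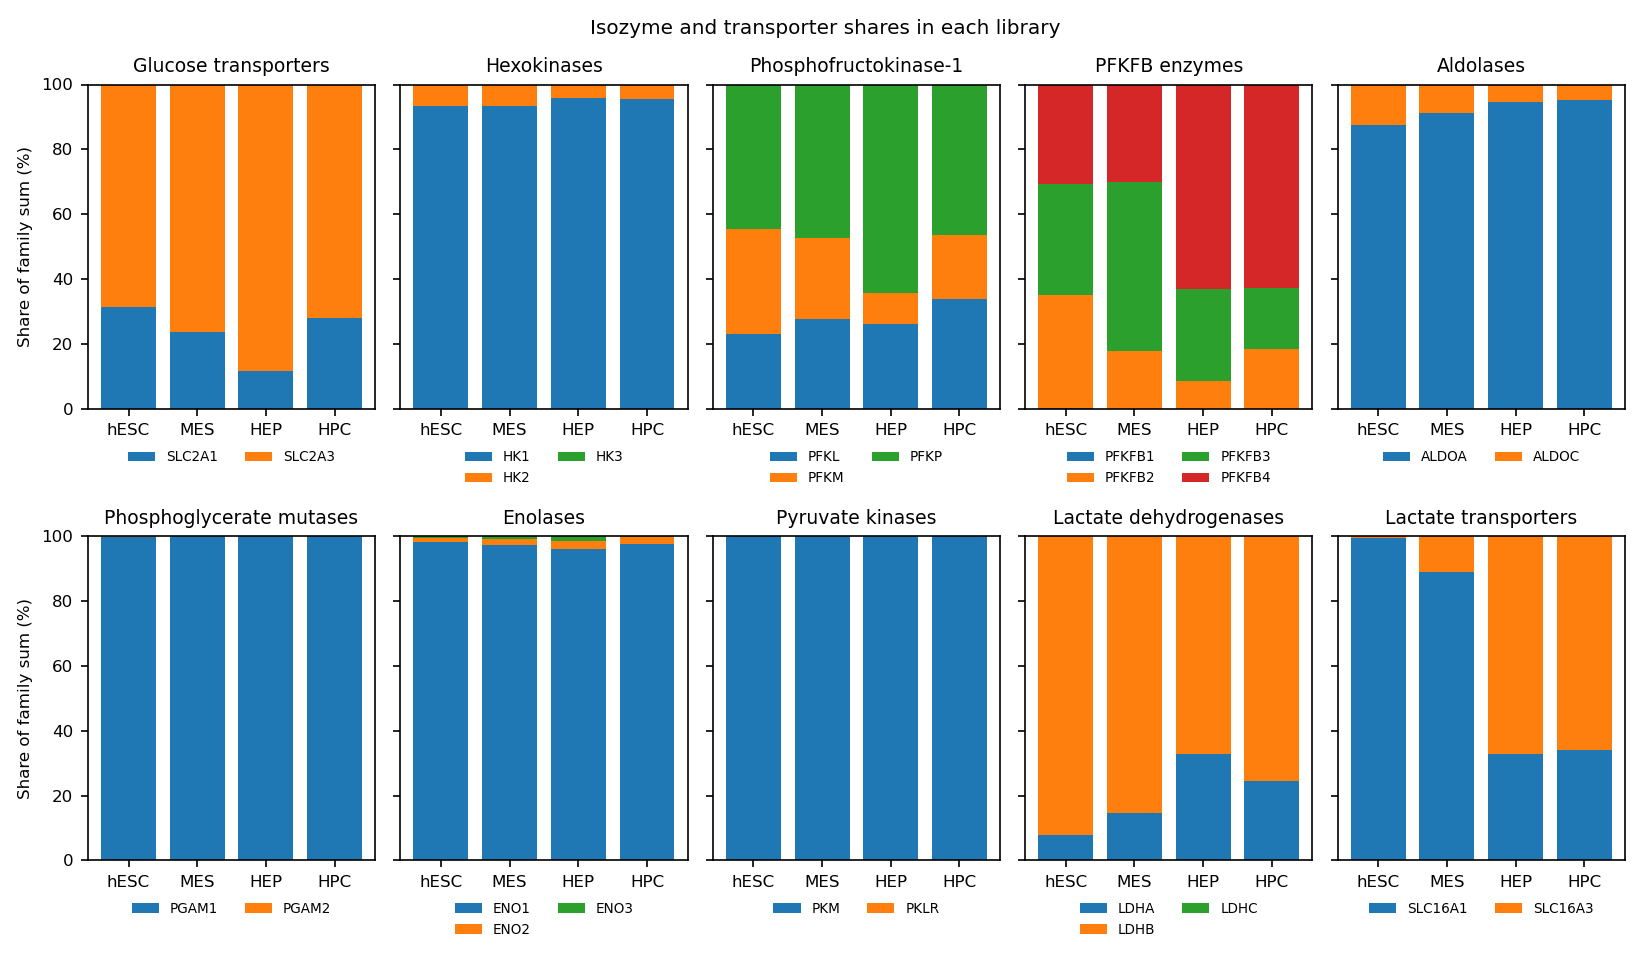
Share of each gene in the sum of its family (percent), 1 bar per library, for 10 families. The bars of the lactate transporters turn over between MES (SLC16A3 11.1%) and HEP (67.3%), the PFKFB bars pass to PFKFB4, and the hexokinase, enolase, mutase and pyruvate kinase bars stay with 1 gene.

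Of the 10 families, 4 had an isozyme shift, meaning a new leading gene or a share that differed by at least 20 percentage points between any pair of libraries: phosphofructokinase-1, the PFKFB enzymes, lactate dehydrogenase and the lactate transporters. The leading gene changed in 2 of them, the PFKFB enzymes and the lactate transporters. The glucose transporters lay just outside, with a range of 19.8 points. After removal of the GC trend 4 families again passed, the glucose transporters (31.3 points) in place of phosphofructokinase-1. Shares within a library do not depend on the scaling between libraries.

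PDHA1 and PDK1 stand at the gate to mitochondrial oxidation. PDHA1, the catalytic E1 alpha subunit of pyruvate dehydrogenase, stood at 30.3 in hESC, 25.2 in MES, and 12.1 and 16.5 in HEP and HPC, and HEP was 2.09-fold below MES (-1.01; -0.21 with the GC trend removed). PDK1, the kinase that inactivates it and a hypoxia target, stood at 4.44, 5.34, 3.06 and 2.45 and passed the rule nowhere. The ratio of LDHB to PDHA1 was 45.02 in hESC, 29.3 in MES, and 8.09 and 17.8 in HEP and HPC.

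Promoters of 4 genes are shown because they belong to the lactate dehydrogenase pair, whose ratio changed, and to SLC16A3 and PFKFB4, the genes counted as higher from hESC to HPC. Each line gives the 250 bases before the RefSeq start (GRCh38.p14), 5′ to 3′ on the gene's strand. Capitals mark ACGTG or GCGTG on either strand, the core of the element bound by hypoxia-inducible factors; CACGTG, also the core of the E-box of MYC-type factors, holds ACGTG on both strands. LDHA is at chr11:18394313-18394562 (plus strand), LDHB at chr12:21657843-21658092 (minus), SLC16A3 at chr17:82228185-82228434 (plus) and PFKFB4 at chr3:48556804-48557053 (minus).
LDHA: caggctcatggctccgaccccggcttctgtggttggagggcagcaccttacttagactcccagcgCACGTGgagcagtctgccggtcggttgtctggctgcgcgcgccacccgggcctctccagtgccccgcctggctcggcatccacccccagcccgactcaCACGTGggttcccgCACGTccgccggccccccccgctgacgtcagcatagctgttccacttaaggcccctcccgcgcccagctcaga
LDHB: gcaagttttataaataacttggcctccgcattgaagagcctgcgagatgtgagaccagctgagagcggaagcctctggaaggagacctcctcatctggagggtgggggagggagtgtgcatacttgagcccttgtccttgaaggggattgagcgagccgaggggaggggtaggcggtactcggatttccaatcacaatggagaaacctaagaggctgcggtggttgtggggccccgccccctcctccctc
SLC16A3: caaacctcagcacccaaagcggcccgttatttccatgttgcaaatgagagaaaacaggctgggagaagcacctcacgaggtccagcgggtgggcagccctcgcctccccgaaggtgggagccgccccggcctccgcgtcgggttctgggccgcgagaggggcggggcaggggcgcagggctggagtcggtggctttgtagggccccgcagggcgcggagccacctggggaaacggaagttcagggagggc
PFKFB4: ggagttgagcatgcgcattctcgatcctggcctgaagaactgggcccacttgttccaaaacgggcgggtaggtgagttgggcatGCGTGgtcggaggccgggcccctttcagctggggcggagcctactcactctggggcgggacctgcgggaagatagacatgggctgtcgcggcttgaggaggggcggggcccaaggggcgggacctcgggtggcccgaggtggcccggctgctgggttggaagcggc
The LDHA stretch held 3 marked runs and the PFKFB4 stretch 1, while the LDHB and SLC16A3 stretches held 0. Of the 32 genes 29 matched an entry, SLC2A3, PFKFB2 and SLC16A1 not, and 17 of the 29 (58.6%) held a match, against 52.6% of 13269 promoters of the genes analysed. A match is a run of letters and not a shown binding site.

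From hESC to MES, the step under activin A and BMP4, 2 of the 32 genes were higher, PKM and SLC16A3, and 0 lower. Over all 17630 genes 3.79% were higher and 3.7% lower. Among the 25 of the 32 with a mean of 5 or more over the 4 libraries 2 were higher and 0 lower, against 7.44% and 6.87% of the 6388 genes at that level. The median difference was -0.01 over the 32 genes and -0.02 over all genes. Removal of the GC trend added SLC2A3 to the higher genes, making 3, against 4.08% of all genes higher and 2.17% lower. With that trend removed, shares were computed over all genes only, here and in the later comparisons. Counts this small lie near the background.

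From MES to HEP, the step under VEGF and bFGF, 2 genes were higher, PFKP and SLC16A3, and 5 lower, SLC2A1, LDHA, LDHB, SLC16A1 and PDHA1. Over all genes 3.32% were higher and 13.9% lower, and at a mean of 5 or more 7.51% and 30%, against 2 and 5 of 25. The lower genes were thus 15.6% of the 32, close to the share of all genes, and 20% of the 25, under the share at that level. With the GC trend removed 2 were higher, PGK1 and SLC16A3, and 3 lower, SLC2A1, PFKFB3 and LDHB. That is 6.25% and 9.38% of the 32, against 3.66% and 4.96% of all genes. Most of all genes average under 5, and the share at 5 or more was not computed with the trend removed. Of the 7 calls as deposited 3 held, SLC16A3, SLC2A1 and LDHB. SLC2A1, with a GC content of 55.8%, lay against the trend: its difference was -1.44 where the median of 464 genes within 1 point of its GC content was 0.14. With median-of-ratios scaling over all genes above 0, 7 genes were higher and 2, LDHB and SLC16A1, lower.

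**Figure D4:**
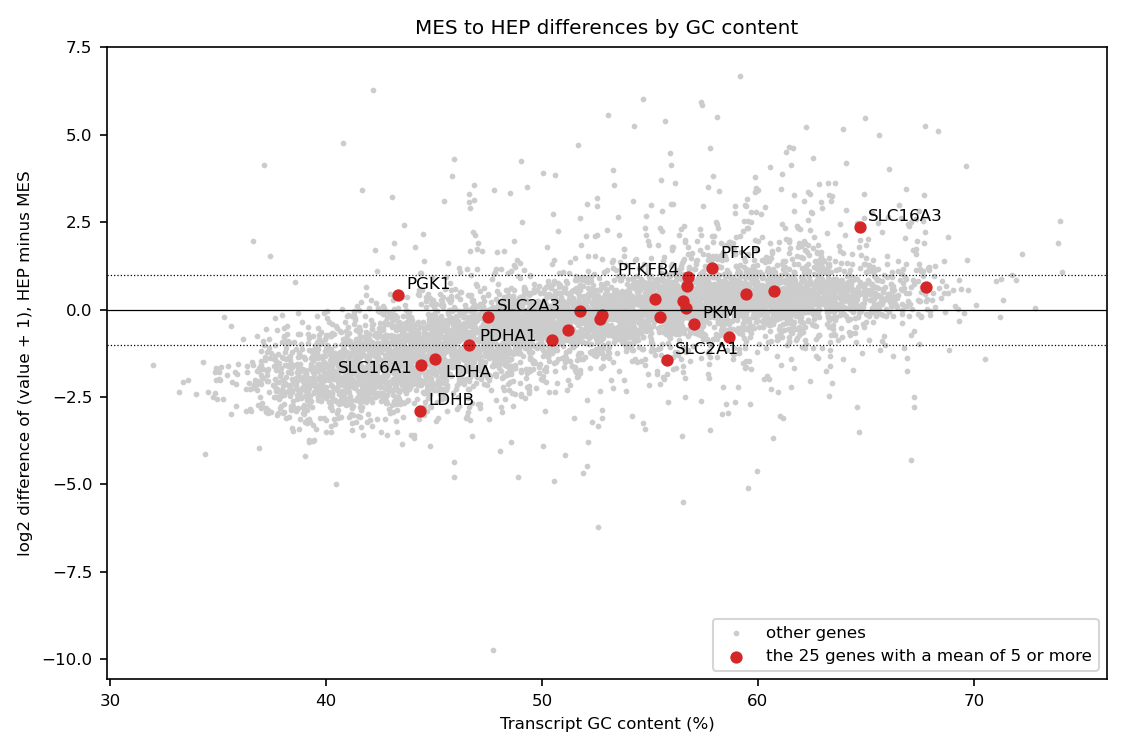
Log2 difference from MES to HEP against transcript GC content, 1 point per gene with a mean of 5 or more; red points are the 25 genes of the pathway at that level. The grey cloud climbs with GC content. Among genes of like GC content, LDHB and SLC2A1 lie towards its lower edge, and PGK1 and SLC16A3 towards its upper edge.

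From HEP to HPC, the step with SB-431542, 2 genes were higher, PFKFB2 and LDHB, and 2 lower, SLC2A3 and ENO3. Over all genes 3.01% were higher and 3.57% lower. At a mean of 5 or more 1 of 25 was higher and 2 lower, against 6.18% and 8.28%. LDHB, SLC2A3 and ENO3 passed the rule with the GC trend removed as well, and PFKFB2 (0.96) did not, where 2.67% of all genes were higher and 3.53% lower. The median difference over the 32 genes was 0.00, as it was over all genes.

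Between the ends of the course, hESC and HPC, 2 genes were higher, PFKFB4 and SLC16A3, and 4 lower, SLC2A1, SLC2A3, LDHB and SLC16A1. Over all genes 4.67% were higher and 15.8% lower, and at a mean of 5 or more 9.83% and 32.1%, against 2 and 4 of 25. With the GC trend removed PGK1 joined the higher genes and SLC2A3 left the lower ones, and the other 5 calls held. That made 3 higher and 3 lower, 9.38% of the 32 each, against 6.34% and 6.63% of all genes. The share at a mean of 5 or more was not computed with the trend removed. With median-of-ratios scaling over all genes above 0, 7 were higher, among them PFKL, ALDOA, PGK1, ENO2 and PKM, and SLC2A1 and SLC2A3 were no longer lower. The comparisons share libraries, so their counts are not independent of each other.

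**Figure D5:**
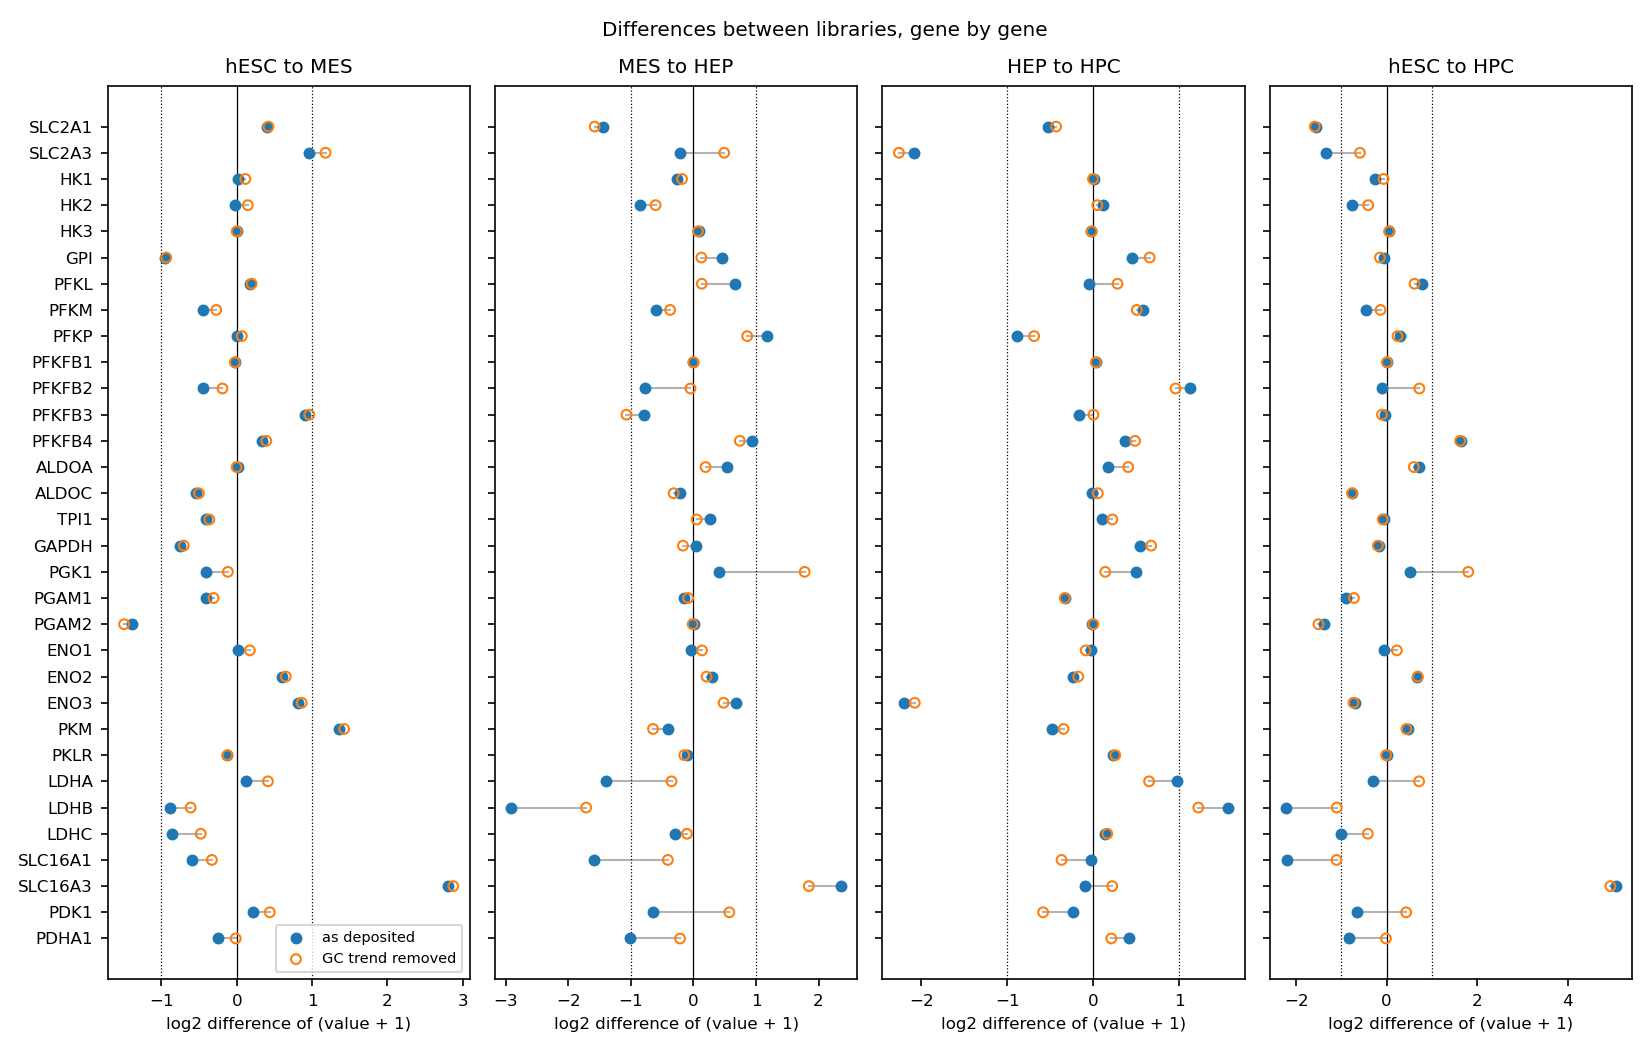
Log2 difference of (value + 1) for each of the 32 genes in the 4 comparisons, as deposited (filled) and with the GC trend removed (open); dotted lines mark a 2-fold difference. SLC16A3 lies to the right of the line in 3 panels, LDHB to the left in 2, and the longest shifts between the markers, from MES to HEP, belong to the genes poor in G and C (PGK1, PDK1, LDHB and SLC16A1).

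In the values as deposited, most of the abundant genes of the pathway had a smaller spread than the typical abundant gene. The spread over all genes was not computed with the other scalings. Members moved both ways under them, as with median-of-ratios scaling (PFKP from 2.30 to 3.59, LDHA from 2.68 to 1.95). The median GC content was 55.3% over the 32 genes and 51.6% over genes with a mean of 5 or more. Its part in the spread was not tested. Among the 25 at that level the median ratio of the highest to the lowest library was 2.10, against 2.69 over 6371 genes, and 18 of the 25 lay under that median. SLC16A3 (63.6) and LDHB (13.9) were far above it. ENO1 (1.05), HK1 (1.21) and TPI1 (1.33) had the smallest ratios as deposited, while TPI1 reached 1.87 with median-of-ratios scaling.

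Genes around the pathway were read from lists, whose counts stand against the shares of all genes given above for each comparison. Of 8 pentose phosphate genes, which make NADPH and ribose from glucose 6-phosphate, 1 was lower from hESC to MES: TALDO1, transaldolase, at 160 and 61.2; it was higher again from HEP to HPC (69.8 to 145). RPE went from 11.6 in MES to 3.17 in HEP. TKT, transketolase, stood at 376, 230, 277 and 242 and passed no comparison. Among the glycogen genes, UGP2, which makes UDP-glucose for glycogen, stood at 234, 53.5, 3.53 and 3.35, and was lower from hESC to MES and from MES to HEP, with the GC trend removed as well. PYGL, the liver-type glycogen phosphorylase, stood at 1.77 in HEP and 8.97 in HPC.

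Of 17 other glycolytic and related genes found, PGM1, which links glucose 1-phosphate and glucose 6-phosphate, was higher in MES (71.8) than in hESC (19.2) and lower in HPC (17.0) than in HEP (45.8). PGM2 was lower in MES than in hESC, and PGM2 and BPGM were lower in HEP than in MES. BPGM, which makes the 2,3-bisphosphoglycerate of red cells, stood at 7.98, 5.95, 2.09 and 3.48, and so was not higher in HPC beside its globin signal. None of the calls of PGM2 and BPGM held with the GC trend removed. Of 8 other sugar transporters SLC2A6 alone passed in the values as deposited, at 21.7 in HEP and 3.55 in HPC. SLC2A8 was also lower once the GC trend was removed, from hESC to HPC (-1.69, against -1.53 as deposited, where it missed the minimum).

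Of 12 other genes of pyruvate dehydrogenase and pyruvate import, 0 were higher and 3 lower from MES to HEP: DLD (10.4 to 1.19), PDHB (139 to 35.0) and PDHX (13.4 to 4.59), with 1, DLD, lower after the GC trend was removed. Over all genes 13.9% were lower in that step, and 30% at a mean of 5 or more. From hESC to HPC 6 of the 12 were lower as deposited, against 15.8% of all genes and 32.1% at a mean of 5 or more, and 0 with the GC trend removed. Of 20 tricarboxylic acid cycle genes 1 was higher and 6 lower from MES to HEP. The lower ones equal the 30% at a mean of 5 or more, where 13.9% of all genes were lower. With the GC trend removed 4 were lower, where 4.96% of all genes were. The share at a mean of 5 or more was not computed with the trend removed. IDH2, the mitochondrial NADP-dependent isocitrate dehydrogenase, went from 50.9 to 144, and IDH1, its cytosolic counterpart, from 240 to 47.7. MDH1, the cytosolic malate dehydrogenase, went from 158 to 22.03.

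Hypoxia-inducible factors drive many glycolytic genes, and their own genes and other targets were read as well. HIF1A stood at 39.7 in hESC, 29.04 in MES, and 8.25 and 6.37 in HEP and HPC. It was lower in HEP than in MES and in HPC than in hESC, but not with the GC trend removed. EPAS1, which encodes the HIF2 alpha subunit, stood at 0.18, 0, 1.42 and 3.25. EGLN3, a prolyl hydroxylase that marks the factors for breakdown and is itself a target, stood at 6.64, 62.2, 8.25 and 5.01, highest in MES, as were CA12 (1.23, 24.7, 0.45 and 0.13) and P4HA1 (13.6, 27.9, 3.55 and 8.51). Of 16 hypoxia targets outside glycolysis 3 were higher and 1 lower from hESC to MES, 1 and 5 from MES to HEP, 4 and 3 from HEP to HPC, and 0 and 2 from hESC to HPC. Over all genes, in the same order, 3.79% and 3.7%, 3.32% and 13.9%, 3.01% and 3.57%, and 4.67% and 15.8% were higher and lower. The counts after GC trend removal were 4 and 1, 1 and 4, 2 and 3, and 0 and 2. P4HA1 (1.27) and BNIP3 (1.02) were then higher from hESC to MES, where MXI1 no longer passed, and P4HA1 (0.73) and BNIP3L (0.94) no longer passed from HEP to HPC. ADM was the lower gene of the first step (53.0 to 19.4) and went on to 8.48 and 1.18. DDIT4 was highest in HPC, at 43.7.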

How the data were processed

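Per the labels' protocols, Trizol was used to isolate RNA, of which 2 ug went into each Illumina TruSeq RNA library. The authors deposited a normalised signal for every gene in each library; BWA, Bowtie, RSEM and build hg19 are named in the submitters' processing notes. Versions, annotation, strand use and RSEM measure (FPKM or TPM) were not given in the sources used here. Antisense and overlapping genes therefore cannot be told apart.

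Each table had 17634 rows; 4 rows whose symbols had become 2 shared dates were left out. The values were compared as deposited (pseudocount 1, minimum 5, 2-fold), with Python 3.11.15 and pandas 2.3.3. No test was possible with 1 library per group. GC content was the median over protein-coding transcripts of GENCODE 29, matched for 17432 genes (98.9%) and all 32 members; fragmentary transcripts enter these medians. The GC trend was the median deviation in 50 bins of GC content, averaged over 5 bins; after its removal the rho from MES to HEP was 0.13. The procedure was tested on simulated data. Promoters came from RefSeq, and no coordinate of the deposited data was used. All members and family shares are named; of the other lists, up to 3 genes past the rule in each direction, and others chosen after their values were seen. Members and lists were chosen with earlier results of these data known. Some genes of the surrounding lists are not reported here.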

Additional observations from a re-analysis of the deposited data

How the results depend on the processing

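No called difference of the 32 genes changed sign under any alternative tried. The LDHB difference from MES to HEP and that of SLC16A3 from hESC to HPC passed the rule under each of them. Depth is unknown, so low genes such as the PFKFB members carry an unknown counting error. No paired analysis was possible because each group was 1 library, and for the same reason no replicate could be left out. The median-of-ratios scaling restricted to genes with a mean of 5 or more was chosen after seeing the data. Small uncalled differences, among them GAPDH, HK1, ENO1 and PKM, changed sign with the scaling, which moved one library against another by up to 0.62 on the log2 scale.

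Median differences over the 32 genes are given in the order hESC to MES, MES to HEP, HEP to HPC and hESC to HPC. With a pseudocount of 0.1 they were -0.02, -0.18 and (hESC to HPC) -0.14, and with 5 they were 0, -0.05 and -0.11, the HEP to HPC value being left out as it did not move. Median-of-ratios scaling gave 0.02, 0.23, -0.02 and 0.24, and 0.04, 0.08, 0.02 and 0.16 over genes with a mean of 5 or more. Upper quartile scaling gave 0.01, 0.19, -0.01 and 0.21, and a common total 0.09, 0.03, -0.07 and 0.04. Rescaling without abundant gene classes gave 0.08, 0.02, 0.02 and 0.15, and removal of the GC trend 0, -0.03, 0.05 and -0.04. From hESC to MES 4 genes were higher with a common total or without abundant classes, 1 with a minimum of 20 or a 4-fold rule, and 1 was lower with no minimum. From MES to HEP 7 were higher and 2 lower with median-of-ratios scaling, 6 and 2 with upper quartile scaling, 1 and 1 at 4-fold, and 3 lower with the GC trend removed. From HEP to HPC 1 was higher with a pseudocount of 5, a minimum of 20 or the GC trend removed, 0 at 4-fold, and 1 lower with a minimum of 20. From hESC to HPC 7 were higher with median-of-ratios or upper quartile scaling, 5 with the restricted median of ratios or without abundant classes, and 1 with a minimum of 20 or at 4-fold; 2 were lower at 4-fold and with median-of-ratios scaling. With 30 points required, 2 families had an isozyme shift. A stricter rule or minimum admits fewer genes by construction; otherwise the cause was not tested.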
